A study of Mus musculus with 2 samples.

Results

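Chemokines are small secreted proteins that direct the movement of blood cells, and their receptors are G protein-coupled receptors on the cells that respond. The protein-coding chemokine ligand and receptor genes of the deposited table were described here in cells sorted as bone marrow niche cells. These cells came from mice with acute graft-versus-host disease (aGVHD) and from mice that received a marrow transplant alone. The genes were chosen by symbol, biotype and family. Cxcl12, its receptors Cxcr4 and Ackr3, and the platelet chemokines Pf4 and Ppbp were left out. This gave 65 genes, 43 ligands and 22 receptors, of 54532 genes in the table.

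2 libraries were compared, 1 of the group aGVHD_V and 1 of the group BMT. Both came from female CB6F1 recipients that were sub-lethally irradiated with 2 doses of 4.0 Gy and injected 4 hours later with marrow cells of B6.SJL mice. The aGVHD_V mice additionally received spleen cells of female C57BL/6 mice. Each library is called by its cells here, as aGVHD_V cells and BMT cells. The cells were sorted as stromal cells after depletion of CD45, lineage and CD71 positive cells and of dead cells. Blood cell markers were nevertheless abundant in both libraries, as given with the cell markers. The labels do not explain the V, and they state neither the age of the mice, nor the time of sampling, nor how many mice a library holds. There are no replicates, so no difference between the libraries has a test or a p-value.

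Marrow stroma and endothelium make chemokines that hold or recruit blood cells, and granulocytes, monocytes, macrophages and lymphocytes make others at sites of inflammation. CXC ligands that carry the amino acids ELR before their first cysteines act on CXCR2 and attract neutrophils. Ligands of CXCR3 are induced by interferons and attract activated T cells, and many CC ligands act on receptors such as CCR1 and CCR2 of monocytes. Atypical receptors bind chemokines without signalling through G proteins and remove or transport them.

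The upstream sequences of 5 ligands are shown because the accounts of the CXC family turn on them. Cxcl9 and Cxcl10 lie close together and share a receptor but differed between the libraries to unequal degrees, Cxcl1 and Cxcl2 are a neutrophil-attracting pair that were both lower, and Cxcl14 had the largest difference of the members with reads in both libraries. Each run holds the 250 bases before the RefSeq start of the gene on GRCm38.p6, from 5′ to 3′ on the strand of the gene. Capitals mark matches on either strand to the core of an interferon-stimulated response element (GAAANNGAA), a gamma-activated site (TTCNNNGAA), an NF-kB site (GGNNTTTCC) or an AP-1 site (TGANTCA).
Cxcl9 (chr5:92328080-92328329, minus strand): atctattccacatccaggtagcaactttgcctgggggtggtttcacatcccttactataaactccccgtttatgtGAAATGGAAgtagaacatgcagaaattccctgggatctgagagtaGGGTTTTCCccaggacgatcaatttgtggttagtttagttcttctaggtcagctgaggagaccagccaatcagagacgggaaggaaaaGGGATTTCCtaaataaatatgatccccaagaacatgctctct
Cxcl10 (chr5:92348890-92349139, minus strand): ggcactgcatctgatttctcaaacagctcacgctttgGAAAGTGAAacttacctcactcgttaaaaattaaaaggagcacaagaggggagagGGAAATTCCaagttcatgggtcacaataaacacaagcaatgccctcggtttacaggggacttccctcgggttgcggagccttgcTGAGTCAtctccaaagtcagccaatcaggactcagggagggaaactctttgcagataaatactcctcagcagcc
Cxcl14 (chr13:56296552-56296801, minus strand): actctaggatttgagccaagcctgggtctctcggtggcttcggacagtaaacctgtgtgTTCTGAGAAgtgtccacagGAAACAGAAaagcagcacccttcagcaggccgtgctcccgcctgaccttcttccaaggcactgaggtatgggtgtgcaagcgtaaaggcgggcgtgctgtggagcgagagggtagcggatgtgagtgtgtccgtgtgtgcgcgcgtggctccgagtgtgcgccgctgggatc
Cxcl1 (chr5:90890995-90891244, plus strand): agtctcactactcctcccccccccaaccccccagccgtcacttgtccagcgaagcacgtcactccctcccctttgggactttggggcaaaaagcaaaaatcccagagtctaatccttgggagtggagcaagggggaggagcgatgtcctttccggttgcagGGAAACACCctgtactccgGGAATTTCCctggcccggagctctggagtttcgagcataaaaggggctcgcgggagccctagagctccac
Cxcl2 (chr5:90903649-90903898, plus strand): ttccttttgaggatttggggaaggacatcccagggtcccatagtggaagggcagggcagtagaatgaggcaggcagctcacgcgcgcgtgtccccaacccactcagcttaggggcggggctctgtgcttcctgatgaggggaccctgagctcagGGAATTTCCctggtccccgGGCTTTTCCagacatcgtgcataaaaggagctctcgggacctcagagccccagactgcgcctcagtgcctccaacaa

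Cxcl9 held the response element GAAATGGAA and the NF-kB sites GGGTTTTCC and GGGATTTCC. Cxcl10 held the response element GAAAGTGAA, the NF-kB site GGAAATTCC and the AP-1 site TGAGTCA. With these letters Cxcl9 and Cxcl10 shared matches to the response element and the NF-kB site. The letters were shortened after longer forms gave no match in the Cxcl9 window. The shared matches and the counts below rest on that choice. Both Cxcl1 and Cxcl2 held the NF-kB site GGAATTTCC and a second match, GGAAACACC in Cxcl1 and GGCTTTTCC in Cxcl2. Cxcl14 held the gamma-activated site TTCTGAGAA and the response element GAAACAGAA. No match overlapped another in these windows. RefSeq gave such a window for 25 measured members and 16495 genes in all. The response element was present in 7.01% of the 16495 windows, the gamma-activated site in 6.64%, the NF-kB site in 4.81% and the AP-1 site in 6.14%. Among the 25 members the response element was found in 6 windows, the gamma-activated site in 2, the NF-kB site in 7 and the AP-1 site in 2. A match is a description of letters and not a bound site.

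Levels are given as FPKM, which are reads scaled by the length of the gene and by the library size that the authors used. Reads were found for 41 of the 65 genes in at least 1 library, for 30 in aGVHD_V cells and for 35 in BMT cells. A gene was called measured where its FPKM reached 1 in either library, and this held for 34 genes, 22 ligands and 12 receptors. The log2 difference of a gene is log2(FPKM + 1) of aGVHD_V cells minus the same of BMT cells, and a difference of 1 in size is called 2-fold. On this scale aGVHD_V cells had lower levels past 2-fold for 10 of the 34 measured genes, higher levels past 2-fold for 7 and smaller differences for 17. Over all 12942 measured genes of the table, 19.4% were past 2-fold in the lower direction and 8.65% in the higher. The median difference was -0.02 over the 34 genes and -0.07 over all measured genes. With genes without reads set to the floor defined in the next paragraph, the counts over the 34 genes were 6 lower and 1 higher. With the FPKM as deposited, 58.8% of the members outside 2-fold were lower, against 69.2% of all measured genes outside 2-fold. With the FPKM of both libraries rescaled to the same sum, which moved the median gene by -0.55, these shares were 69.6% (16 lower and 7 higher members) and 86.3%. With genes without reads at their floor they were 85.7% and 56.7%, and the count of higher members was then 1.

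Among read numbers of 4 or more, the most frequent per detected gene lay at 44 in aGVHD_V cells and 14 in BMT cells. Intervals of a fold are therefore widened 95% intervals in which this number of reads stands for 1 count, and they cover counting error only. A gene without reads is set against a floor of 3 such counts, 132 reads in aGVHD_V cells and 42 reads in BMT cells. A bound of a fold is given only where the library with reads lies above its own floor and above the level of the other floor. All 7 higher genes were at or under the floor in both libraries, and 6 of them had no reads in BMT cells. No reads were found in aGVHD_V cells for 5 of the 10 lower genes. Reads in both libraries were found for 23 measured genes, and the widened interval lay below no difference for 2 of them (Cxcl9 and Cxcl14), above it for 2 (Ccl5 and Ccl6) and across it for 19.

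**Figure D1:**
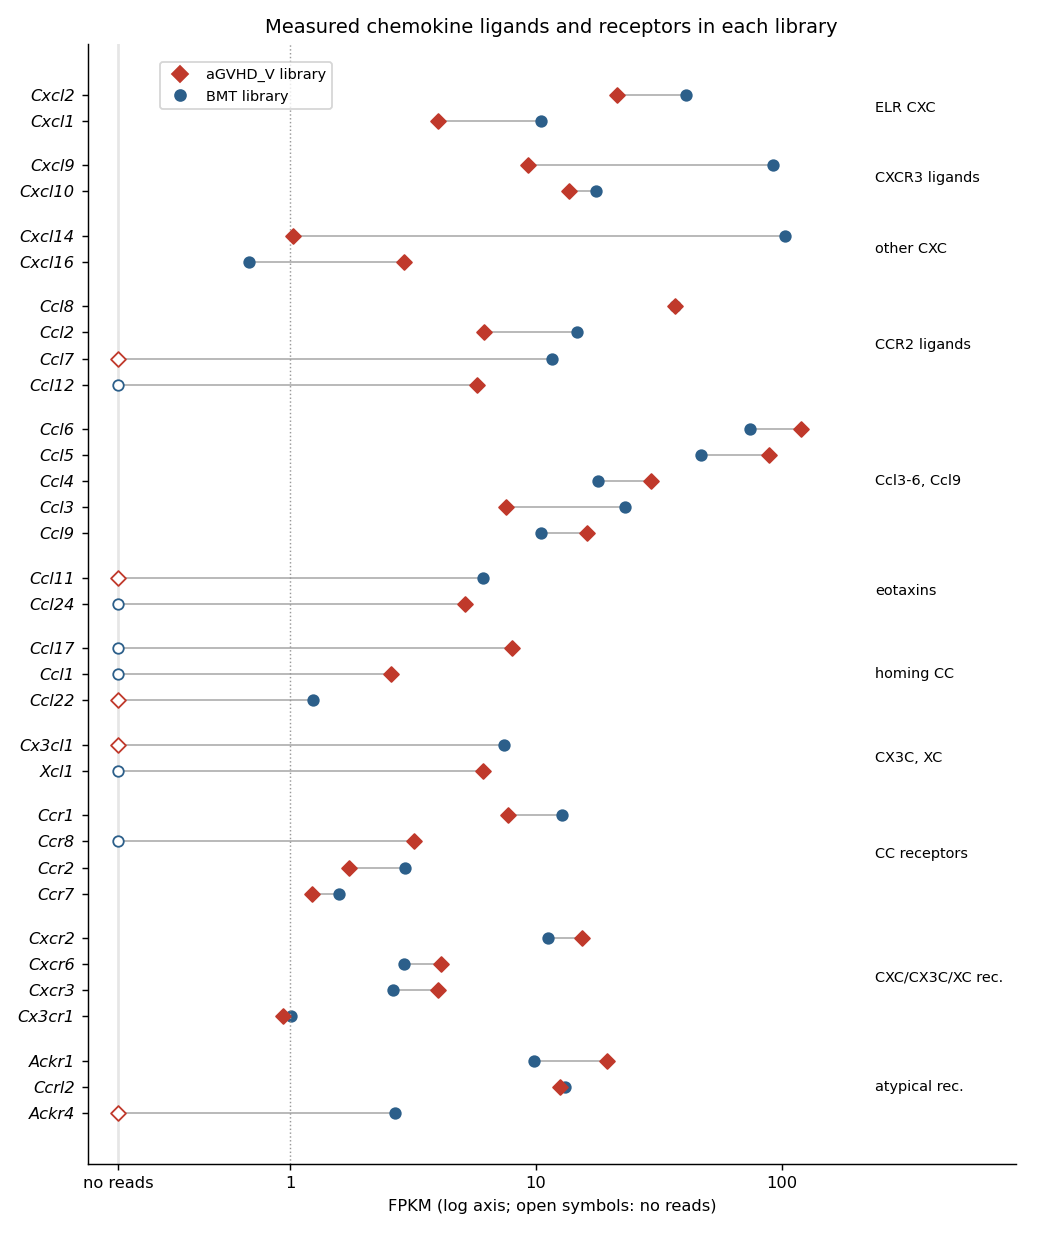
FPKM of 33 of the 34 measured chemokine ligands and receptors on a log axis, with red diamonds for the aGVHD_V library, blue circles for the BMT library and open symbols for no reads. Cxcl14 (1.03 against 103) and Cxcl9 (9.33 against 92.5) have the widest gaps among genes with reads in both libraries, and for Ccl8 the circle lies behind the diamond.

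The libraries differed in their cell markers. Of 12 markers of marrow mesenchymal stroma all were at least 2-fold lower, with a summed FPKM of 19.8 in aGVHD_V cells and 318 in BMT cells, and Lepr had no reads in aGVHD_V cells. Of 10 endothelial markers 7 were lower (summed FPKM 20.8 and 93.0), and Cdh5, Kdr, Tek and Cldn5 had no reads there. The BMT level of Tek (1.63) lay under its aGVHD_V floor (2.63). Emcn, Egfl7 and Esam lay within 2-fold. Blood cell markers were abundant in both libraries despite the sort. All 12 neutrophil markers lay within 2-fold (summed FPKM 21520 and 15886), as did 10 of 12 monocyte and macrophage markers (307 and 321). T and NK cell markers summed to 167 and 86.5, with 3 of 11 measured markers higher, and Ncr1 had no reads in either library. Eosinophil, basophil and mast cell markers summed to 2162 and 2099, with 3 of 9 higher, and erythroid markers to 165633 and 44771, with 6 of 10 higher. All 8 measured B lineage markers were lower (1.5 and 82.8), and 7 of the 9 listed, among them Cd79b and Pax5, had no reads in aGVHD_V cells. Dendritic cell markers were low (9.30 and 13.4), with 2 of 5 measured markers lower and 1 higher. The part of these markers in the differences described here was not tested. Fewer cells of a type and less RNA per cell cannot be told apart in such libraries.

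Cxcl14 and Cxcl9 differed most among the chemokine genes with reads in both libraries. Cxcl14, a chemokine of stromal and epithelial cells (ENSMUSG00000021508, chromosome 13, 56288643 to 56296551, minus strand), had an FPKM of 1.03 in aGVHD_V cells on 20 reads, against 103 in BMT cells on 2282 reads. It was the most abundant of all members in BMT cells and close to the limit of measurement in aGVHD_V cells. The widened interval of its fold began at 9.81-fold lower. Stromal, B lineage and most endothelial markers moved in the same direction, as given with the cell markers. Their part in the level of Cxcl14 was not tested.

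Among the interferon-inducible ligands of CXCR3, Cxcl9 (ENSMUSG00000029417, chromosome 5, 92321347 to 92328079, minus strand) had an FPKM of 9.33 in aGVHD_V cells, against 92.5 in BMT cells. The reads numbered 300 and 3382, both above the floor, and the level was 9.91-fold lower (widened interval 4.69 to 25.3). Its neighbour Cxcl10 (ENSMUSG00000034855, chromosome 5, 92346638 to 92348889, minus strand) had an FPKM of 13.7 in aGVHD_V cells and 17.5 in BMT cells, and the interval of its ratio (0.302 to 1.75) included no difference. The intervals of the ratios of Cxcl9 (0.0395 to 0.213) and Cxcl10 did not overlap. By FPKM alone, the order of both genes was reversed between the libraries. The level of Cxcl9 was 0.683 times that of Cxcl10 in aGVHD_V cells, against 5.28 times in BMT cells. In aGVHD_V cells the order rests on 300 reads of Cxcl9 and 328 reads of Cxcl10. No interval was computed for the ratio of both genes within a library. Whether their order in aGVHD_V cells exceeds counting error was therefore not tested. Exons of Cxcl10 share 133 bases with Art3 on the other strand, which had an FPKM of 0 in aGVHD_V cells and 2.24 in BMT cells, and whether strand was used in counting is not given. Cxcr3, the receptor of both ligands on T cells and NK cells, had an FPKM of 4.01 in aGVHD_V cells and 2.62 in BMT cells (74 and 55 reads, interval of the ratio 0.105 to 11.7).

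Of the 5 ELR-carrying CXC genes Cxcl1 and Cxcl2 were measured. Cxcl2, which neutrophils and macrophages also make, had an FPKM of 21.5 in aGVHD_V cells and 40.7 in BMT cells, and the interval of its fold lower (0.994 to 4.0) just included no difference. Cxcl1, a product of stroma and endothelium, had an FPKM of 4.0 on 80 reads in aGVHD_V cells, against 10.5 on 238 reads in BMT cells, with an interval of the ratio from 0.0368 to 1.70. Both were lower in aGVHD_V cells, and neither interval excluded no difference. Cxcl3 had no reads in aGVHD_V cells and an FPKM of 0.236 in BMT cells, and Cxcl5 and Cxcl15 had no reads in either. Their receptor Cxcr2, which neutrophils use, had an FPKM of 15.5 in aGVHD_V cells and 11.2 in BMT cells (interval of the ratio 0.633 to 2.82), and its direction turned with the FPKM of both libraries rescaled to the same sum. The ligands and the receptor thus differed in opposite directions with the FPKM as deposited, each within its interval.

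Of the other CXC ligands Cxcl16, a membrane-bound ligand of CXCR6, was low in both libraries. It had an FPKM of 2.92 on 94 reads in aGVHD_V cells and 0.682 on 25 reads in BMT cells, both under the floor. Exons of Cxcl16 share 552 bases with Zmynd15 on the other strand, which had no FPKM above 0 in either library. Cxcr6, found on T cells, had an FPKM of 4.13 in aGVHD_V cells and 2.90 in BMT cells (interval of the ratio 0.128 to 8.97), and its direction turned with the FPKM of both libraries rescaled to the same sum. Cxcl13, which guides B cells, and Cxcl17 had no reads.

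The inflammatory CC ligands Ccl3, Ccl4, Ccl5, Ccl6 and Ccl9 had the highest summed FPKM of the ligand groups in both libraries. Their sum was 263 in aGVHD_V cells and 173 in BMT cells. These sums are 68.1% and 33.5% of the FPKM of all chemokine ligands. Cxcl9 and Cxcl14 together made up 2.69% of the ligand FPKM in aGVHD_V cells and 37.8% in BMT cells. Ccl6, a rodent chemokine of myeloid cells (ENSMUSG00000018927, chromosome 11, 83587882 to 83593087, minus strand), had an FPKM of 120.3 in aGVHD_V cells on 2303 reads, against 74.6 in BMT cells on 1623 reads. It was 1.61-fold higher (widened interval 1.14 to 2.26). Ccl5, a product of T cells, NK cells and other cells (ENSMUSG00000035042, chromosome 11, 83525778 to 83530518, minus strand), had an FPKM of 88.9 in aGVHD_V cells on 910 reads, against 46.8 in BMT cells on 545 reads, and was 1.90-fold higher (1.06 to 3.32). Both stayed under the 2-fold threshold, and with the FPKM of both libraries rescaled to the same sum their log2 differences were 0.11 for Ccl6 and 0.34 for Ccl5. Among T and NK cell markers Nkg7, a protein of cytotoxic granules, had an FPKM of 72.2 in aGVHD_V cells and 35.4 in BMT cells. After the same rescaling its log2 difference was 0.45. Gzmb and Cd3d were also higher past 2-fold, and the other measured markers of the list, among them Trac and Lck, lay within 2-fold. The part of these markers in the level of Ccl5 was not tested.

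The remaining ligands of this group did not move together. Ccl9, a rodent chemokine that binds CCR1, had an FPKM of 16.2 in aGVHD_V cells and 10.5 in BMT cells (interval of the ratio 0.713 to 3.13). Ccl4, an activation product of macrophages and lymphocytes, had an FPKM of 29.6 in aGVHD_V cells and 18.0 in BMT cells (0.427 to 5.33). Ccl3, which is made by similar cells and lies beside Ccl4, had an FPKM of 7.59 on 62 reads in aGVHD_V cells, against 23.1 on 215 reads in BMT cells (0.0192 to 1.71). Ccl4 was thus the more abundant of the pair in aGVHD_V cells, at 3.89 times the level of Ccl3, and the less abundant in BMT cells, at 0.777 times. The intervals of the ratios of Ccl3 and Ccl4 overlapped.

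Ligands of CCR2 draw monocytes out of the marrow, and the genes grouped here by that receptor were divided. Which receptor each of them acts on was not tested. Ccl2, a main ligand of CCR2 that stromal cells, endothelium and macrophages make, had an FPKM of 6.18 on 75 reads in aGVHD_V cells, against 14.8 on 204 reads in BMT cells (interval of the ratio 0.0355 to 1.97). Ccl7 had no reads in aGVHD_V cells and an FPKM of 11.6 on 113 reads in BMT cells, under the aGVHD_V floor of 15.5 FPKM for this short gene, so no bound of the fold is given. Ccl2 and Ccl7 lie next to each other and were both lower. Ccl8 had an FPKM of 36.9 in aGVHD_V cells and 36.8 in BMT cells (interval of the ratio 0.27 to 2.95), and the sign of this small difference turned under 4 of the 10 alternative settings. Ccl12, a mouse ligand of CCR2, had an FPKM of 5.76 on 33 reads in aGVHD_V cells and no reads in BMT cells, under the floor in both. Ccr2, the receptor of Ccl2 on monocytes, had an FPKM of 1.73 in aGVHD_V cells and 2.93 in BMT cells (0.105 to 2.10).

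**Figure D2:**
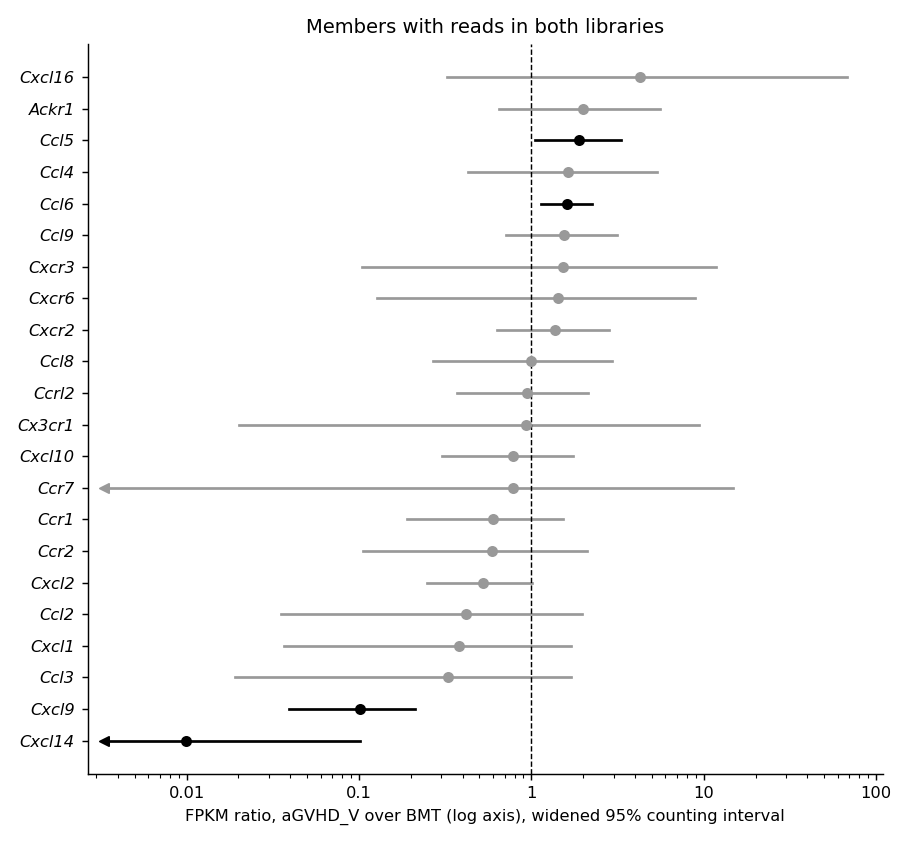
Ratio of the FPKM in aGVHD_V cells to that in BMT cells, on a log axis, for 22 of the 23 measured members with reads in both, with widened 95% intervals of counting error as lines. Arrows mark intervals that run past the axis, and black marks the 4 genes whose interval excludes a ratio of 1, which are Ccl5, Ccl6, Cxcl9 and Cxcl14.

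Chromosome 11 carries 11 CC ligand genes in a pair of clusters, all of them measured. In the first cluster, which runs in order from Ccl2 through Ccl7, Ccl11, Ccl12 and Ccl8 to Ccl1, 3 genes were past 2-fold in the lower direction, 2 in the higher direction, and Ccl8 was in neither. Over all measured genes 19.4% were lower and 8.65% higher. In the second cluster, from Ccl5 through Ccl9, Ccl6 and Ccl3 to Ccl4, only Ccl3 was outside 2-fold, and the other 4 had positive differences between 0.58 and 0.91. The 3 lower genes of the first cluster, Ccl2, Ccl7 and Ccl11, are direct neighbours. The widened intervals of their ratios reached 1.97, 2.07 and 3.24 in this order, so each included no difference. The 2 higher genes, Ccl12 and Ccl1, were under the floor in both libraries. The clusters are separated by other genes, among them the Slfn family. Of 18 other measured genes in this stretch 3 were lower past 2-fold (Tmem132e, Lig3 and Slfn5) and 2 higher (Slfn9 and Slfn14).

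**Figure D3:**
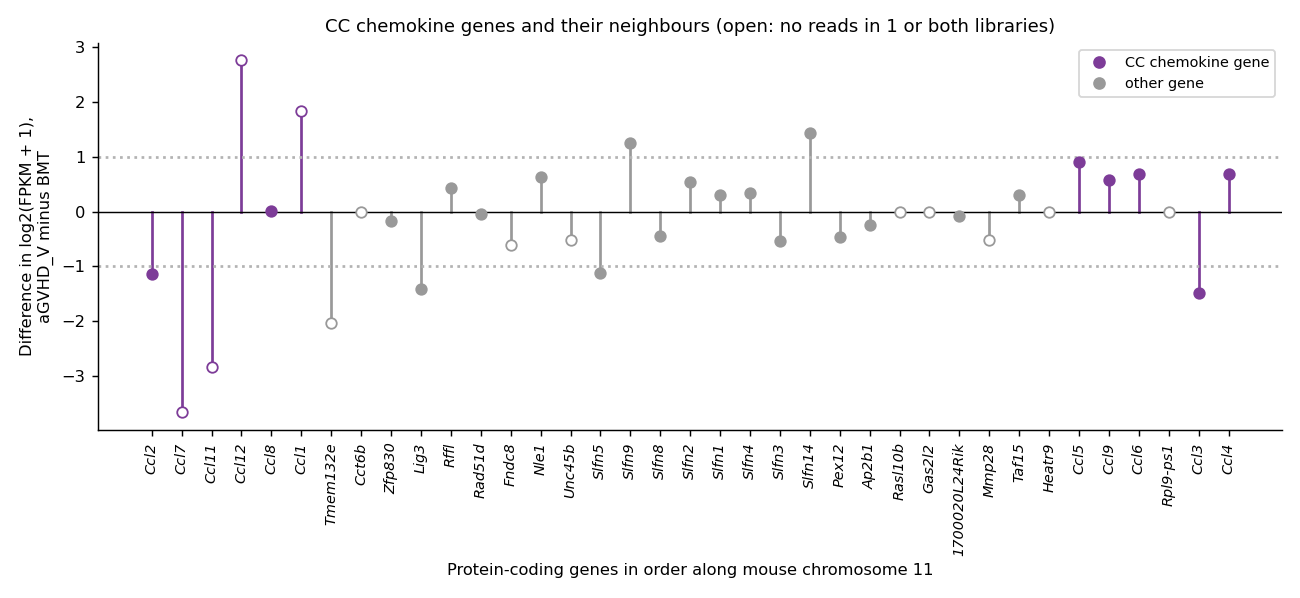
Difference in log2(FPKM + 1), aGVHD_V minus BMT, for protein-coding genes in their order along chromosome 11 from Ccl2 to Ccl4, with CC chemokine genes in purple, other genes in grey and dotted lines at 2-fold. Open symbols mark genes without reads in 1 or both libraries, and Ccl2, Ccl7 and Ccl11 at the left end lie below the lower dotted line. The widened intervals of Ccl2, Ccl7 and Ccl11 include no difference.

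Of 3 eotaxin genes, whose products act on CCR3 of eosinophils, Ccl11 and Ccl24 each had reads in a single library and Ccl26 had none. Ccl11, made by stromal cells, had no reads in aGVHD_V cells and an FPKM of 6.10 on 80 reads in BMT cells. Ccl24, made by macrophages and other cells, had an FPKM of 5.14 on 71 reads in aGVHD_V cells and none in BMT cells. No bound of the fold is given, because Ccl11 was under its aGVHD_V floor of 11.4 FPKM and the reads of Ccl24 were under the floor of its own library. Ccr3 had no reads in aGVHD_V cells and an FPKM of 0.58 in BMT cells.

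Ligands that guide lymphocytes and dendritic cells were scarce. Of 18 such genes, which include near-identical copies of Ccl19, Ccl21 and Ccl27 whose reads could be divided among copies, 13 had no reads in either library. Ccl17, a ligand of CCR4, had an FPKM of 8.03 on 44 reads in aGVHD_V cells and none in BMT cells. Ccl1, a ligand of CCR8, had an FPKM of 2.57 on 65 reads in aGVHD_V cells and none in BMT cells. Ccl22, the other ligand of CCR4, went the other way, with no reads in aGVHD_V cells and an FPKM of 1.24 on 35 reads in BMT cells. All 3 were under the floor in both libraries. Ccl25 and Ccl27a had no reads in aGVHD_V cells and an FPKM of 0.31 and 0.52 in BMT cells.

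Cx3cl1, the membrane-tethered ligand of CX3CR1 that endothelium and other tissue cells make, had no reads in aGVHD_V cells, against 355 reads and an FPKM of 7.45 in BMT cells. It was at least 2.36-fold lower against the floor of the aGVHD_V library. Its receptor Cx3cr1, found on monocytes and macrophages, had an FPKM of 0.937 in aGVHD_V cells and 1.01 in BMT cells (45 and 55 reads, interval of the ratio 0.0202 to 9.38). The ligand thus had no reads in aGVHD_V cells alone. The receptor was low in both libraries, on too few reads to say whether its levels were similar. Xcl1, a chemokine of activated T cells and NK cells, had an FPKM of 6.10 on 34 reads in aGVHD_V cells and none in BMT cells, under the floor in both. Its receptor Xcr1, which marks a class of dendritic cells, had an FPKM of 0.885 in aGVHD_V cells and 0.611 in BMT cells.

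Receptors and ligands were also counted apart. Of 12 measured receptors 10 lay within 2-fold, 1 was lower and 1 higher, against 7 within 2-fold, 9 lower and 6 higher among 22 measured ligands, while 71.9% of all measured genes lay within 2-fold. All 6 higher ligands were at or under the floor in both libraries. Median differences were 0.17 for receptors and -0.17 for ligands, and the difference between these groups was not tested. Summed FPKM was 72.8 in aGVHD_V cells and 63.1 in BMT cells over all receptors, and 386 and 517 over all ligands. Without Cxcl9 and Cxcl14, left out after their values were seen, the ligands summed to 375 in aGVHD_V cells and 321 in BMT cells.

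Among receptors of CC ligands Ccr1, used by neutrophils and monocytes, was the most abundant, with an FPKM of 7.71 in aGVHD_V cells and 12.8 in BMT cells (interval of the ratio 0.19 to 1.53). Ccr7, which leads lymphocytes and dendritic cells to lymph nodes, had an FPKM of 1.23 in aGVHD_V cells and 1.58 in BMT cells on 26 and 38 reads. Ccr8, the receptor of Ccl1, had an FPKM of 3.19 on 40 reads in aGVHD_V cells and none in BMT cells. No receptor named in this group had an interval that excluded equal levels, and the reads of Ccr8 were under the floor of its own library. Ccr10 had no reads in aGVHD_V cells and an FPKM of 0.621 in BMT cells.

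The atypical receptors included Ackr1, which had the highest FPKM of the 22 receptor members in aGVHD_V cells. Ackr1, the Duffy antigen receptor of erythroid cells and venous endothelium (ENSMUSG00000037872, chromosome 1, 173331886 to 173333750, minus strand), had an FPKM of 19.6 on 293 reads in aGVHD_V cells and 9.80 on 167 reads in BMT cells, with an interval of the ratio from 0.649 to 5.58. Exons of Ackr1 share 361 bases with Cadm3 on the same strand, which stayed under an FPKM of 1 in both libraries. Erythroid markers moved in the same direction and endothelial markers in the other, and their part was not tested. Ackr4, which removes Ccl19, Ccl21 and Ccl25, had no reads in aGVHD_V cells and an FPKM of 2.67 on 174 reads in BMT cells. It was at least 1.16-fold lower against the floor, but the widened interval of its ratio reached 1.24. Ccrl2, a non-signalling receptor that binds chemerin, had an FPKM of 12.5 in aGVHD_V cells and 13.2 in BMT cells (0.372 to 2.13), and Ackr2, a scavenger of inflammatory CC ligands, had no reads in aGVHD_V cells and an FPKM of 0.211 in BMT cells.

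The 24 genes without reads in either library include 7 on unplaced scaffolds and the receptors Ccr1l1, Ccr4, Ccr6, Ccr9, Cxcr1 and Cxcr5. Over the 17 on chromosomes the floor ran from an FPKM of 1.21 (Ccr9) to 43.9 (Ccl26) in aGVHD_V cells and from 0.338 to 12.3 in BMT cells. The depth therefore sets only a weak limit for the shorter of these genes.

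Genes that act downstream of chemokine receptors were set beside the members. Within 2-fold lay 27 of 30 measured genes of receptor signalling, against 71.9% of all measured genes. The other 3 were lower, and the median difference was 0.14. Gnai2, the inhibitory G protein subunit most used by these receptors in leukocytes, had an FPKM of 181 in aGVHD_V cells and 173 in BMT cells (interval of the ratio 0.874 to 1.25), and its small difference turned under 3 alternative scalings. Rgs2, which shortens G protein signals, had an FPKM of 7.34 in aGVHD_V cells and 17.1 in BMT cells, 2.33-fold lower (1.03 to 6.35). The other lower genes were Rgs19, of the same family, with an FPKM of 9.08 in aGVHD_V cells against 19.4 in BMT cells, and the migration adaptor Elmo1, with 0.641 in aGVHD_V cells against 2.32 in BMT cells, and both intervals included no difference.

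Of 17 measured inducers of chemokine genes 13 lay within 2-fold, 3 were lower and 1 was higher, with a median difference of -0.24. These counts are near the shares over all measured genes (19.4% lower and 8.65% higher). Ifng, the cytokine interferon gamma that induces Cxcl9 and Cxcl10, had an FPKM of 1.01 on 14 reads in aGVHD_V cells and 5.86 on 92 reads in BMT cells. Il6 had no reads in aGVHD_V cells and an FPKM of 3.91 in BMT cells, and Il1a had an FPKM of 0.76 in aGVHD_V cells and 6.98 in BMT cells. None of these 3 cytokines had an interval that excluded equal levels. Tnf, the single higher gene and named after its values were seen, had an FPKM of 26.5 in aGVHD_V cells and 12.4 in BMT cells (interval of the ratio 0.893 to 4.83). The inhibitor gene Nfkbia, itself induced by NF-kB, had an FPKM of 248 in aGVHD_V cells and 163 in BMT cells (1.19 to 1.94), and its log2 difference of 0.60 was 0.03 with the FPKM of both libraries rescaled to the same sum. Irf1, a transcription factor induced by interferons and named after its values were seen, had an FPKM of 29.4 in aGVHD_V cells and 47.9 in BMT cells (0.397 to 0.919).

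**Figure D4:**
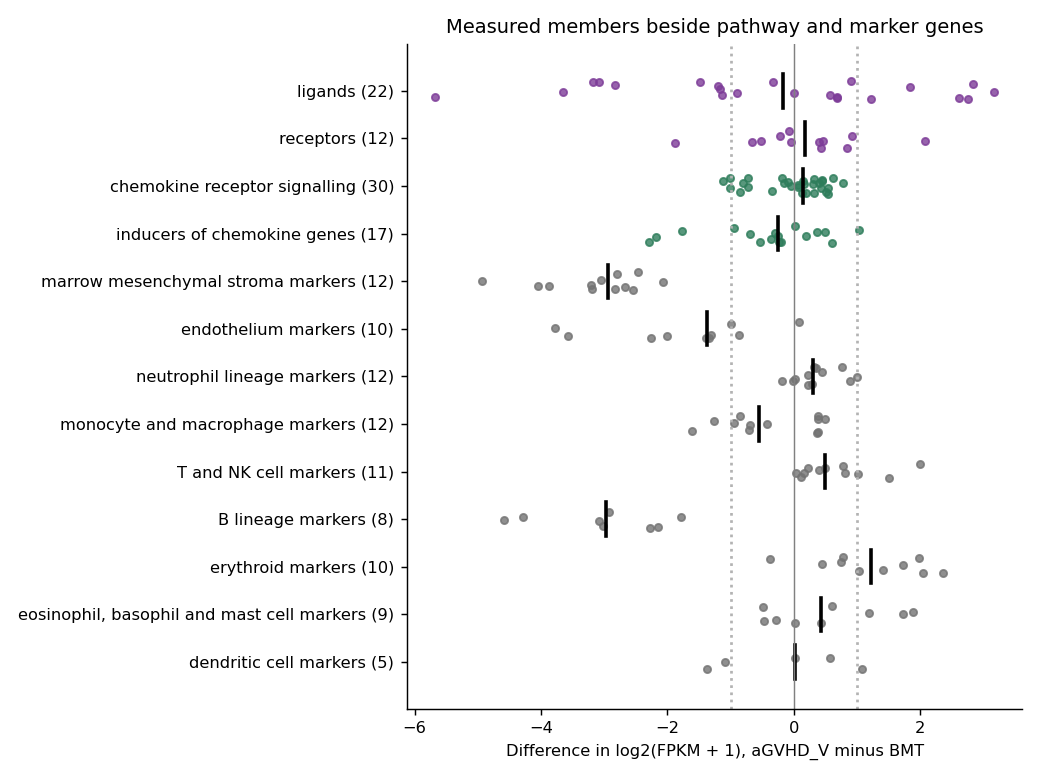
Difference in log2(FPKM + 1), aGVHD_V minus BMT, of each measured ligand and receptor in purple, of pathway genes in green and of cell type markers in grey, with the number of genes in brackets, black bars at medians and dotted lines at 2-fold. The ligands spread from -5.68 (Cxcl14) to 3.17 (Ccl17), wider than the receptors, and all 12 stromal markers lie to the left of the lower dotted line.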

How the data were processed

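Cells sorted as bone marrow stroma were profiled by RNA sequencing in 1 aGVHD_V library and 1 BMT library, grouped by their labels. Per the file headers, the authors deposited gene FPKM. Tools named in the submitters' processing notes are edgeR 3.18.1, with builds GRCm38 and mm10, and no source used here gives the aligner, the counter or the use of strand. A column of values that fits no sample's label (1 in number) was left aside.

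FPKM multiplied by gene length were whole multiples of 1 step per library for 100.0% of values above 0 (tolerance 0.05), which gave 11299834 recovered reads for aGVHD_V and 10869191 for BMT. The authors' library sizes were 0.944 and 1.12 times these totals. The modal read number was the highest sum over a window of 7 values among numbers of 4 or more. Reads divided by it gave exact conditional binomial (Clopper-Pearson) 95% intervals of the ratio, which contain no variation between mice. Read recovery and intervals were tested on simulated data with independent reads, where each read was 1 count. The widened intervals were not tested in this way. All 65 identifiers had the same start and end in GENCODE M21. Every measured member is named except 1, which is not reported here by name or level but enters the counts and sums. Of each pathway list the 3 genes with the largest absolute difference and the most abundant one are named. Markers were not named by this order, but mostly where they had no reads in aGVHD_V cells. Members and lists were chosen with earlier results of these data known. The motif letters were shortened after a search with longer forms, under which the Cxcl9 window had no match. SciPy 1.17.1 and pandas 2.3.3 were used.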

Additional observations from a re-analysis of the deposited data

How the results depend on the processing

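The 10 alternatives were pseudocounts of 0.1 and 5, 5 scalings, no filter, an FPKM minimum of 5, and genes without reads set to the floor of 3 counts, or to the level of the other library where that was lower. No measured member at least 2-fold lower or higher changed its direction under these, and 3 others did (Ccl8, Cxcr2 and Cxcr6). Pseudocounts, the filter settings and the floor setting cannot turn a sign by their construction. Scalings that multiply the FPKM leave a level of 0 at 0. The signs of the 5 lower and 6 higher members without reads in 1 library could therefore not turn under such scalings. With genes without reads at the floor 5 of the members past 2-fold (Ccl7, Ccl11, Ccl12, Ccl22 and Xcl1) had a difference of 0. The count of 10 lower members became 6 with a pseudocount of 5, 16 with an equal FPKM sum of 1000000 and 6 with genes without reads at the floor. The count of 7 higher members became 4 with a pseudocount of 5, 4 with an FPKM minimum of 5 and 1 with genes without reads at the floor. Under the other settings both counts stayed within 1.5 times. The median difference of members ran from -0.60 to 0.04, of ligands from -0.91 to 0.0 and of receptors from -0.48 to 0.42. In an alternative chosen after seeing the data, each read was counted as independent, and 19 instead of 4 of the 23 members with reads in both libraries had an interval that excluded equal levels. That the modal read number stands for 1 starting molecule is an assumption and was not tested. The scalings moved the median gene by -0.55 (equal FPKM sum), -0.21 (recovered read totals as library sizes) and -0.15 (leaving ribosomal protein, mitochondrial and hemoglobin genes out of the sum). No paired analysis was possible because each group has 1 library.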

Other observations

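Cxcl11, the remaining ligand of CXCR3, is annotated in the deposited table as a polymorphic pseudogene and was therefore not among the 65 genes. It had 0 reads in aGVHD_V cells and 6 reads (FPKM 0.13) in BMT cells, under the floor in both.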
